A study of Mus musculus with 5 samples.

Results

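The genes of the proteasome were compared between hematopoietic stem cells (HSCs) of wild type (WT) mice and of mice that lack Atxn1L, a relative of ataxin-1. They were taken by name, as every gene whose symbol starts with Psma, Psmb, Psmc, Psmd, Psme, Psmf or Psmg and a digit and that has a probe set annotated to it alone. The rule took 49 of the 18193 genes measured in this way, and 103 of the 45037 probe sets fitted. Of the 49 genes, 47 encode subunits, regulators or assembly factors, while Psmc3ip and Psme3ip1 share the prefix only as partners of the encoded proteins. Psme2, which encodes the partner of Psme1 in the activator PA28, was read only together with a related gene and is not reported here.

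The 26S proteasome is the protease that degrades most ubiquitin-tagged proteins of the cell. Its 20S core is a barrel of outer alpha and inner beta rings with the catalytic sites inside, and 19S particles at the ends bind, unfold and deubiquitinate the substrates with a ring of ATPases and a set of non-ATPase subunits. Alternative activators can replace the 19S cap, dedicated chaperones assemble the rings, and inducible beta subunits form the immunoproteasome, which shapes peptides for MHC class I. HSCs make protein at a low rate and are known to be sensitive to a buildup of misfolded proteins.

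RNA was measured on 5 Affymetrix mouse arrays, 3 hybridised with RNA of WT HSCs and 2 with RNA of Atxn1L-null HSCs, all from bone marrow of mice on the C57Bl/6 background at 6 to 8 weeks of age by the labels. The null allele is carried by the whole animal, so that an effect inside HSCs and an effect of other tissues on them cannot be told apart. The cells were Lineage-negative, Sca-1+ and c-Kit+ (LSK), CD150+ and in the side population, and they were pooled for each chip. The number of mice in a pool is not given, and the p-values below measure the spread between these pools. Values are log2 signals of 1 probe set after GCRMA, a normalization that corrects the background by probe sequence, so they compare the same gene between genotypes and not 1 gene with another.

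The labels were checked first. The brighter of the informative Atxn1l probe sets read 6.80, 6.69 and 4.98 in the WT pools, against 3.08 and 3.99 in the null pools, and the next had means of 6.19 in WT and 3.44 in null pools. Both fell past the criterion given below. Of the HSC markers, Procr had a mean of 13.57 in WT and 13.39 in null pools, and Kit of 8.26 and 8.00, while Slamf1, which encodes the CD150 used in the sort, was dim at 3.92 and 3.89. Of 18 measured markers of T, B, myeloid, erythroid and dendritic cells and macrophages, none passed it. Averaged over the list, their log2 value was 4.08 to 4.20 across WT pools, against 4.28 and 4.17 in null pools, 13 of the 18 stayed under 5 in both genotypes, and Cd3e, Hba-a1, Itgam and Itgax lay at or under 2.54. The brightest, the granule peroxidase gene Mpo, had means of 11.48 in WT and 12.09 in null pools. The others that reached 5 were H2-Ab1 (8.78 in WT and 8.81 in null pools), Csf1r (6.75 and 7.17), Cd79b (6.24 and 6.44) and Cd74 (4.79 and 5.03). For Csf1r and Cd79b both null pools lay above every WT pool. The pools also differed in the array controls that compare the 3' and 5' ends of a transcript. By the paper's methods, the RNA was amplified linearly in 2 rounds before it was labeled. For Gapdh, the 3' signal exceeded the 5' signal by 5.94 (SD 0.07, 3 WT pools), against 7.27 (SD 0.09, 2 null pools). For Actb, the excess was 6.57 (SD 0.15) and rose to 7.35 (SD 0.10) with the null genotype. In both controls it was thus larger in the null pools. The part of these differences in the results below was not tested. In pooled cells, fewer cells of a type and less RNA per cell cannot be told apart.

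Nearly all proteasome genes reached a level of 5, and few differed between the genotypes. In WT or null HSCs, 47 of the 49 genes had a mean of 5 or more, against 39.8% of all genes. This level is a cut on the signal of a probe set and no proof of expression or its absence, since Slamf1 lay under it. On the brightest probe set of each gene, the one highest on average over all arrays, 3 proteasome genes were higher and 0 were lower in Atxn1L null HSCs at the study's criterion, p of at most 0.05 in limma and a fold of at least 1.5. These were Psmb2, a structural subunit of the beta ring, Psmd14, the deubiquitinase of the 19S lid, and Psme3, a nuclear activator of the core. The criterion was passed upward by 1.57% and downward by 1.43% of all genes, and by 3.50% and 3.44% of the genes that reached a level of 5. The share of proteasome genes called higher, 6.12%, rests on those 3 genes.

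None of the 49 passed at a limma p adjusted by Benjamini-Hochberg over all probe sets (lowest adjusted p = 0.431). At an unadjusted p of at most 0.05 there were 4, the called genes and the 19S lid gene Psmd12, against 7.44% of all genes and 16.2% of the genes that reached a level of 5. The median log2 difference, null minus WT, was 0.08 over the proteasome genes and 0.02 over all genes at a level of 5 or more, and single genes ran from -1.29 to 0.73. The median absolute difference was 0.23, against 0.24 over the genes at a level of 5 or more, called the expressed genes here. A positive difference was found for 31 of the 49 (63.3%), against 45.4% of all genes and 52.7% of the expressed genes.

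For 14 proteasome genes (28.6%) both null pools read above every WT pool, and for 2 (4.08%), Psmb7 and Psmb8, both read below. In 6 of the 14 the gap between the nearest pools was under 0.05 on the log2 scale, the narrowest being 0.0010 for Psmd5 and 0.0036 for Psmd11. The background is 9.14% and 8.35% of all genes, and 18.4% and 15.4% of the genes at a level of 5 or more. In both directions together, 32.7% of the proteasome genes and 33.8% of the expressed genes had no overlap.

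Promoter stretches are shown for the called genes Psmd14 and Psme3, and for Psmd9 and Psmd12 as examples of the other motif searched. RefSeq windows of GRCm38.p6, from 250 bases before to 50 bases after a transcript start, were at hand for 41 of the 49 genes as 44 windows, with none for Psmb2. Motifs were searched on both strands: TGANNNNGC, the core of the antioxidant response element to which Nfe2l1 and Nfe2l2 bind, and CCAAT, the box of NF-Y. Each stretch below runs 5′ to 3′ on the strand of the gene, with matches in capitals, and ATTGG is CCAAT on the opposite strand.
Psmd14, chr2:61711515-61711614, plus strand: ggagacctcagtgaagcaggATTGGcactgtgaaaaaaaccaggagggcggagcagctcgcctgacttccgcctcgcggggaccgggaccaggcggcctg
Psme3, chr11:101316113-101316212, plus strand: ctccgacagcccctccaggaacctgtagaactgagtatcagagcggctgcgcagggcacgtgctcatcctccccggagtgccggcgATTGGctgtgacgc
Psmd9, chr5:123228090-123228189, plus strand: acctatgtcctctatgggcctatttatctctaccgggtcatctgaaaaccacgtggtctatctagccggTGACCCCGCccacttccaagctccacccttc
Psmd12, chr11:107479428-107479527, plus strand: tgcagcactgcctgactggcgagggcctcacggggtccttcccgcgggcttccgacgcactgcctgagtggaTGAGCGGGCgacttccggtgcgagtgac
The TGANNNNGC core was present in 25 of the 44 windows of proteasome genes (56.8%), against 41.3% of the 32851 windows in the table. CCAAT was present in 16 of the 44 (36.4%), against 37.4%. The windows of the called genes Psmd14 and Psme3 held CCAAT and no TGANNNNGC. Of the 11 genes with a window whose null pools lay above every WT pool without a call, 5, Psmd9 and Psmd12 among them, held the core alone, 1 held CCAAT alone, 3 held both and 2 neither. A match of letters is a description and no site of binding.

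The alpha ring gates the entry of the core, and none of its 8 genes passed the criterion. Psma6 read 10.80, 10.89 and 10.44 in the WT pools, against 11.23 and 11.00 in the null pools. The groups did not overlap, and the difference of 0.40 had a standard error of 0.18. Psma3 had no overlap either, at 12.39 to 12.60 in WT pools, against 12.83 and 12.63 in null pools. A dimmer probe set of Psma3 went the other way, with means of 8.10 and 7.87, and overlapped. Psma2 differed by 0.35 and Psma4 by 0.29, each with values that overlapped, Psma1 by -0.06 and Psma7 by -0.02, while Psma5 read 11.46 in both genotypes. Psma8, the testis form of an alpha subunit, had means of 6.57 and 6.89 and overlapped. The median difference of the alpha genes was 0.25.

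For Psma7, another probe set read 8.28, 8.05 and 8.26 in WT pools, against 7.84 and 7.67 in null pools, below the required fold, while its brightest one read 8.76 and 8.74. Psma1 also differed between its probe sets. Its brightest probe set read 9.97 and 9.91, and a dimmer one fell by 0.78, from 8.03 ± 0.15 (SD, n = 3) to 7.26 ± 0.45 (SD, n = 2; limma adjusted p = 0.788). The 3 probe sets that did not pass differed by 0.07 or less in size.

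Of the 11 genes of the beta ring, Psmb2 rose and none fell. Psmb2 read 5.09, 5.24 and 4.97 in the WT pools, against 5.93 and 5.67 in the null pools. Both null pools lay above all WT pools in this dim range. The rise was 1.62-fold, from 5.10 ± 0.14 (SD, n = 3) to 5.80 ± 0.19 (SD, n = 2), a log2 difference of 0.70 with a standard error of 0.13 (limma adjusted p = 0.494). Psmb2 has only 1 probe set. Its call ended without the first null pool, at 0.57, just under the required log2 difference of 0.58, with array weights, at 0.56, and with the replicate number as a block, at 0.63.

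The structural beta subunit gene Psmb1 read 10.15, 10.48 and 10.31 in WT pools, against 11.11 and 10.46 in null pools, so that only the first null pool stood apart (log2 difference 0.47, 95% confidence interval -0.22 to 1.16). Psmb3 read 9.81 and 9.96 in the 2 genotypes, with no overlap and a difference of 0.15. Its dimmer probe set went the other way, at 6.06 and 5.84, and overlapped. Psmb4 differed by 0.03.

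None of the genes of the 3 catalytic subunits passed. Psmb5, which carries the chymotrypsin-like activity, read 11.79, 11.68 and 12.26 in the WT pools, against 11.77 and 11.54 in the null pools. Psmb6, with the caspase-like activity, read 12.77, 12.92 and 12.83 against 13.26 and 12.94. Psmb7, with the trypsin-like activity, read 9.73, 10.05 and 10.36 against 9.45 and 8.05. Psmb5 thus overlapped, Psmb6 was slightly above and Psmb7 below the WT range.

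The difference of Psmb7, -1.29, was the lowest of all 49 genes and the least certain of this ring, with a standard error of 0.51 and a 95% confidence interval of -2.75 to 0.16 (limma adjusted p = 0.991). Psmb7 did not pass as fitted, but it was called lower with a variance trend, with array weights and without dim probe sets, and without the first null pool. The difference was -0.26 for Psmb5 (95% confidence interval -0.89 to 0.37) and 0.27 for Psmb6 (-0.07 to 0.60).

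**Figure D1:**
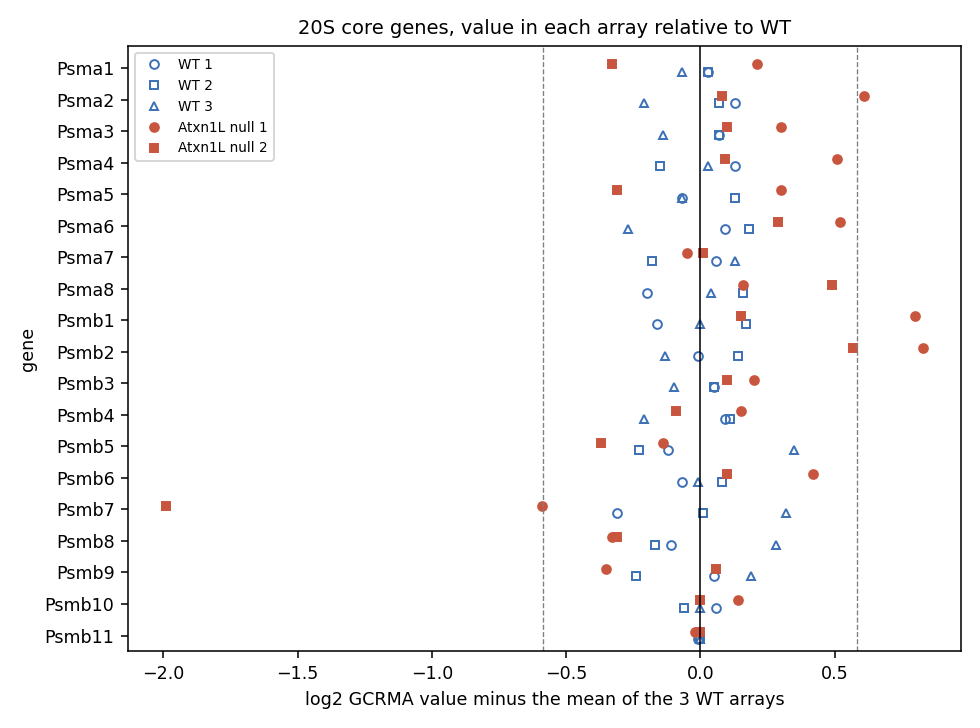
Log2 GCRMA value of each 20S core gene minus its mean over the 3 WT arrays (horizontal axis), a row per gene (vertical axis), with open blue symbols for the WT arrays, filled red ones for the Atxn1L null arrays and dashed lines at a fold of 1.5. The null arrays of Psmb2 lie to the right of every WT array, and the second null array of Psmb7 lies farthest to the left, at 8.05 against a WT mean of 10.04.

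The inducible subunits Psmb8, Psmb9 and Psmb10 replace the catalytic Psmb5, Psmb6 and Psmb7 in the immunoproteasome, and all were expressed in both genotypes. Psmb8 read 11.65, 11.59 and 12.04 in the WT pools, against 11.43 and 11.45 in the null pools. The null pools both lay under the lowest WT pool, and the gap did not reach the required fold (log2 difference -0.32, standard error 0.16). Psmb9 read 9.17, 8.88 and 9.31 against 8.77 and 9.18 and overlapped. Psmb10 read 11.03 and 11.10, with a difference of 0.07 (95% confidence interval -0.11 to 0.25). Psmb11, the thymus form, read 2.11 and 2.10, near the floor of the scale.

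Psmb8 and Psmb9 lie close to each other in the MHC region, with the peptide transporter gene Tap1 between them, at chr17:34198195-34201454 and chr17:34182030-34187330 of GRCm38.p6. Interferon and Irf1 induce them together with the genes that load peptides on MHC class I. A list of such genes and of interferon-related regulators and targets (Irf1, Irf8, Nlrc5 and Gbp2) had 11 measured members, of which 0 were higher and 2 were lower at the criterion, against 1.43% of all and 3.44% of the expressed genes called lower. In 5 of the 11 both null pools lay below every WT pool, against 8.35% and 15.4%, and in 1 above. The list was chosen with earlier results of these data known, so these shares measure no excess over the background. The called genes were the regulator Irf1 and the class I gene H2-D1. Irf1, the transcription factor, fell from 8.46 ± 0.32 (SD, n = 3) to 7.39 ± 0.30 (SD, n = 2), or by 1.07 on the log2 scale with a standard error of 0.26 (limma adjusted p = 0.641). H2-D1, a class I heavy chain, fell from 12.40 to 11.70, a difference of -0.70 (limma adjusted p = 0.569), and its probe sets can share sequence with other class I genes. H2-K1, another heavy chain, read 12.03 and 11.54 with no overlap, under the required fold, while a dimmer probe set of it was called lower, at 11.78 and 11.12 (difference -0.67, limma adjusted p = 0.555). Tap1 read 7.31 and 7.46, the chaperone gene Tapbp 12.28 and 11.42, and B2m 12.48 and 12.53. The median difference of the 11 genes was -0.26.

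**Figure D2:**
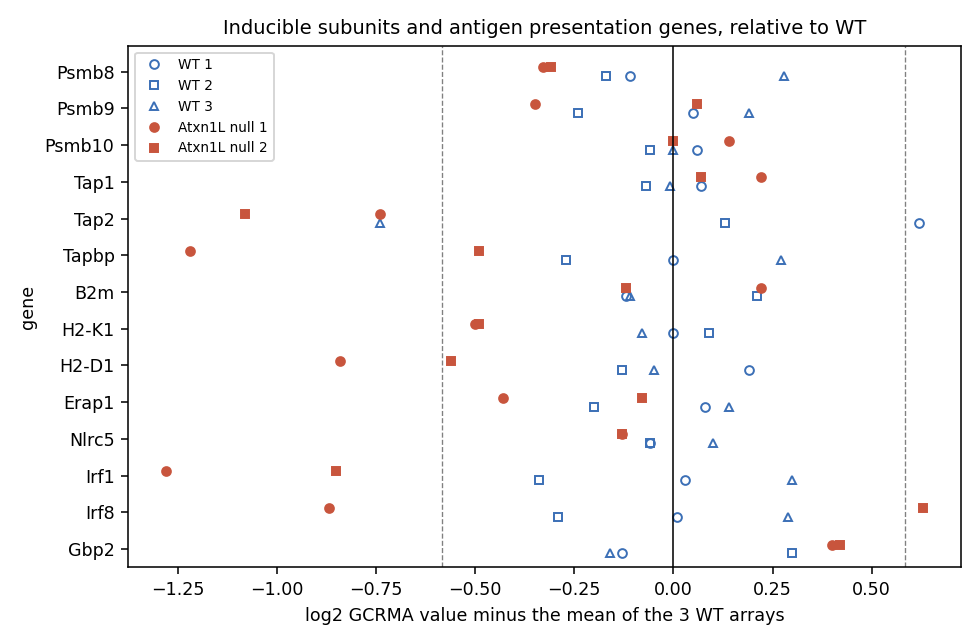
Log2 GCRMA value of the 3 inducible subunit genes and of the 11 antigen presentation genes minus each gene's mean over the 3 WT arrays (horizontal axis), a row per gene (vertical axis), with open blue symbols for WT and filled red ones for Atxn1L null arrays and dashed lines at a fold of 1.5. Both null arrays of Irf1 and H2-D1 lie to the left of all WT arrays, while those of Psmb9 and Psmb10 overlap with WT.

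The ATPases form the ring that unfolds the substrate, and none of the 6 genes passed or had separate groups. Psmc5 read 8.25, 7.37 and 7.94 in the WT pools, against 6.79 and 7.53 in the null pools, a log2 difference of -0.69 (95% confidence interval -1.79 to 0.40). Psmc3 read 9.42, 9.26 and 8.47 against 9.01 and 8.03, a difference of -0.53 (-1.86 to 0.80). For both, the spread within a genotype was as wide as the gap between the means. The other ATPase genes were tighter. Psmc1 differed by 0.06, Psmc2 by -0.12, Psmc4 by 0.21 and Psmc6 by 0.14. On these brightest probe sets, their 95% confidence intervals together ran from -0.44 to 0.79 and reached past a fold of 1.5 for Psmc4 alone. A dimmer probe set of Psmc2 had an interval of -0.78 to 0.48, and one of Psmc4 differed by -0.08 (-0.75 to 0.60).

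Among the 11 other genes of the 19S particle Psmd14 rose and none fell. Psmd14, the metalloprotease that cuts ubiquitin chains from the substrate as it enters, read 10.22, 10.23 and 10.40 in the WT pools, against 11.02 and 10.81 in the null pools. The groups were well apart, by more than the range of either. The rise was 1.54-fold, from 10.28 ± 0.10 (SD, n = 3) to 10.91 ± 0.15 (SD, n = 2), a log2 difference of 0.63 with a standard error of 0.10 (limma adjusted p = 0.431). This was the lowest adjusted p of the 49 genes. Its single probe set passed without any 1 array but the first null one, where the difference was 0.52, and it was also called with array weights and with the block, at 0.69 in each. Psmd7, the inactive partner of Psmd14, read 7.83 and 7.82 on its brightest probe set (95% confidence interval of the difference -0.10 to 0.08). Its next probe set read 5.22 and 5.09, with a wider interval of -0.67 to 0.41.

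Psmd12, a scaffold of the lid, read 8.41, 8.22 and 8.02 in the WT pools, against 8.70 and 8.67 in the null pools. The groups did not overlap, and the difference of 0.47 (95% confidence interval 0.09 to 0.85; limma adjusted p = 0.744) lay under the required fold. Psmd11, a lid subunit that is known to limit proteasome assembly, was read by 8 probe sets. The brightest read 8.73, 8.71 and 8.73 against 9.15 and 8.74. The second rose by 0.75, from 7.93 ± 0.19 (SD, n = 3) to 8.68 ± 0.15 (SD, n = 2; limma adjusted p = 0.529). The 6 dimmer ones did not pass.

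Psmd6, another lid subunit, differed between its probe sets. The brightest read 12.49, 11.86 and 12.39 in the WT pools, against 11.94 and 12.70 in the null pools, which overlap. Another rose by 1.22, from 7.02, 7.17 and 6.61 to 8.66 and 7.65 (limma adjusted p = 0.819). Psmd13, also of the lid, had the largest positive difference of the 49 genes, 0.73, and the widest WT spread, at 7.17, 8.18 and 6.50 against 8.52 and 7.51, so that the groups overlapped (95% confidence interval -1.13 to 2.59). Its dimmer probe sets differed by 0.64 and -0.59, and the dimmest lay near the floor, at 2.49 and 2.48. Averaged over its probe sets, the difference was 0.19.

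The ubiquitin receptor gene Psmd4 and the lid gene Psmd8 differed between the null pools. Psmd4 read 8.76, 9.08 and 8.65 in WT pools, against 9.10 and 8.03 in null pools. Psmd8 read 6.31, 6.31 and 6.32 in WT pools, against 6.42 and 5.53 in null pools. In both, the first null pool lay above and the second below the WT pools. The scaffold genes Psmd1 and Psmd2, which bind ubiquitin and its shuttles, differed by -0.02 and 0.02, and Psmd3 by 0.06.

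For Psme1, Psme3 and Psme4, the measured activator genes, both null pools lay above every WT pool on the brightest probe set, and Psme3 rose. Psme3, which forms the nuclear activator PA28 gamma, rose 1.51-fold, from 5.65, 5.66 and 5.58 in the WT pools to 6.42 and 6.02 in the null pools (log2 difference 0.59 with a standard error of 0.14, limma adjusted p = 0.626). A dimmer probe set of Psme3 had means of 4.58 and 4.26, a difference of the opposite sign that did not pass, and the third read 3.25 and 3.24. The call passed only without the second WT or the second null array among the fits that left out 1 array, and the difference averaged over its probe sets was 0.09.

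Psme4, which encodes the activator PA200, read 8.99, 9.04 and 8.54 in the WT pools, against 9.73 and 9.22 in the null pools. The groups did not overlap, and the difference of 0.62 exceeded the required fold without passing the test (95% confidence interval -0.08 to 1.33; limma adjusted p = 0.993). Its second probe set read 6.54 and 7.03, in the same direction. Without dim probe sets the gene was called. Psme1, of the interferon-induced activator PA28, read 10.25 and 10.54, with no overlap and a difference of 0.29. The inhibitor gene Psmf1 read 6.69 and 6.52 and overlapped.

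**Figure D3:**
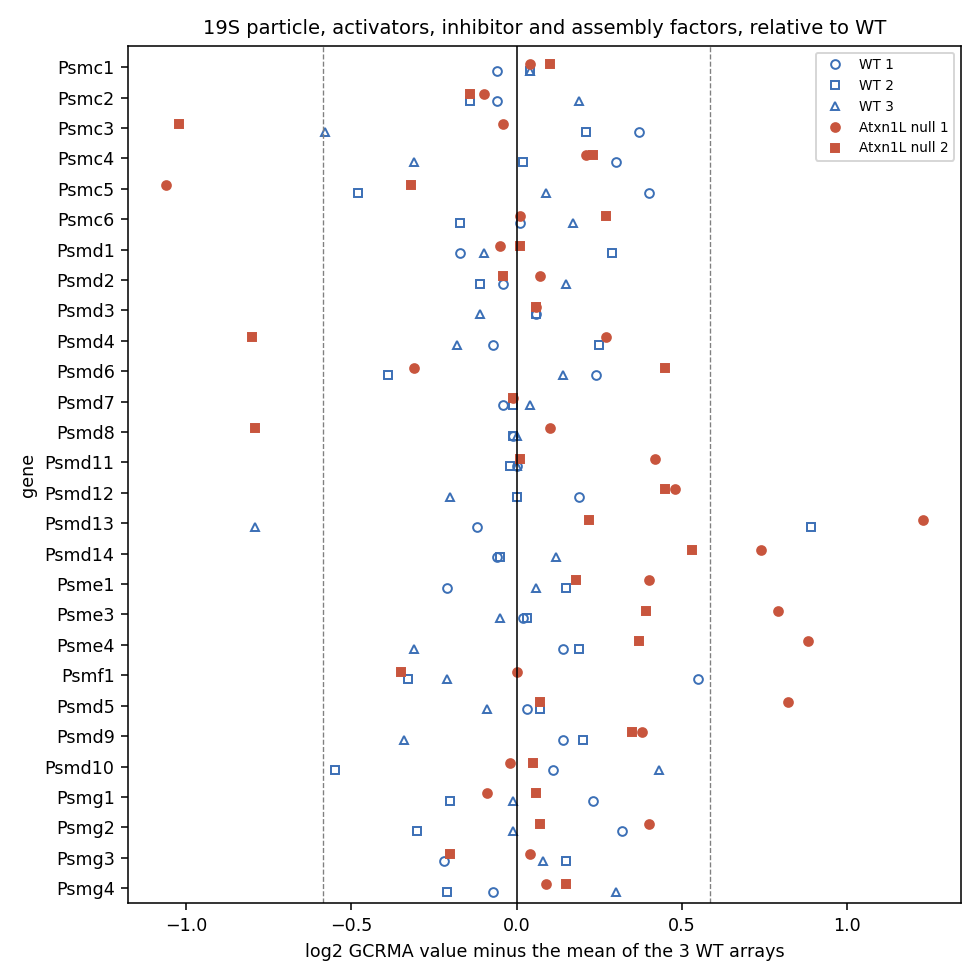
Log2 GCRMA value of each gene of the 19S particle, the activators, the inhibitor and the assembly factors minus its mean over the 3 WT arrays (horizontal axis), a row per gene (vertical axis), with open blue symbols for WT and filled red ones for Atxn1L null arrays and dashed lines at a fold of 1.5. Both null arrays of Psmd14, Psmd12, Psme3 and Psme4 lie to the right of all WT arrays, while those of Psmd4 and Psmd8 lie on opposite sides.

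None of the 7 genes of assembly chaperones passed the criterion. Psmg1, Psmg2, Psmg3 and Psmg4, which guide the alpha ring, differed by -0.02, 0.23, -0.08 and 0.11. Of the chaperones of the 19S base, Psmd9 read 6.22, 6.28 and 5.74 in the WT pools, against 6.46 and 6.43 in the null pools (difference 0.37, standard error 0.20). Psmd5 read 4.48, 4.52 and 4.36 against 5.27 and 4.52, so that the second null pool lay above the highest WT pool by only 0.0010. Psmd10, also known as gankyrin, read 6.82 and 6.83. The partner genes outside the complex, Psmc3ip and Psme3ip1, each differed by 0.23 and did not pass.

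**Figure D4:**
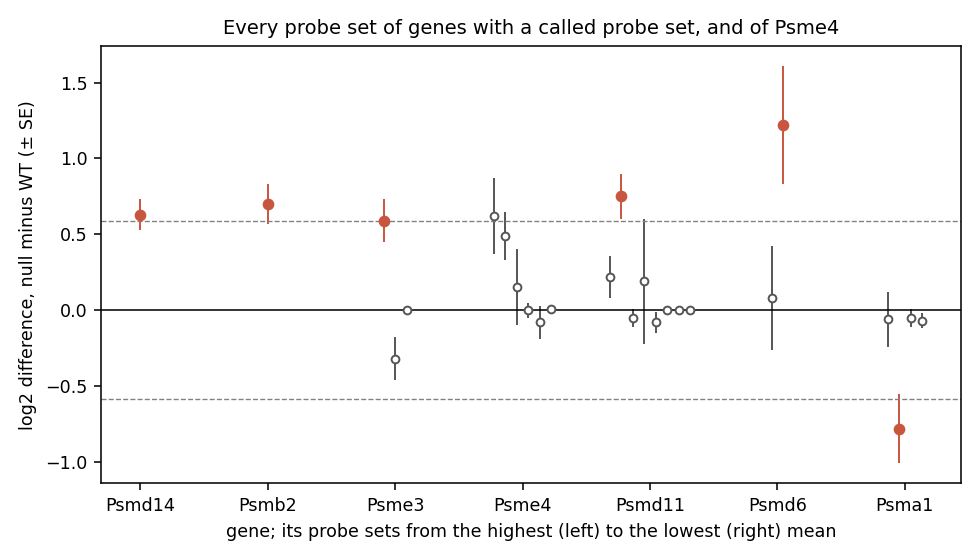
Log2 difference, Atxn1L null minus WT, with its standard error (vertical axis) for every probe set of the genes with a called probe set and of Psme4 (horizontal axis), ordered within a gene from the highest mean on the left. Red filled points passed the criterion, open ones did not, and dashed lines mark a fold of 1.5. Psmd14 and Psmb2 have only 1 probe set each, while the called probe sets of Psmd6, at 1.22, and Psma1, at -0.78, stand beside brighter ones near 0.

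Counting any probe set of a gene, 5 proteasome genes were higher and 1 was lower, 6 of the 49 genes in all, against 4.48% of all genes in either direction. The higher ones were Psmb2, Psmd6, Psmd11, Psmd14 and Psme3, and the lower one was Psma1. Of the 103 probe sets 6 passed, against 2.38% of all probe sets. Both backgrounds include dim genes, and for neither count was a share over the expressed genes taken. On the brightest probe set, 6.12% of the proteasome genes and 6.94% of the expressed genes were called in either direction. A single probe set read 22 of the 49 genes, so that for these a second reading was not to be had.

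The null pools differed from each other in the proteasome genes. The first null pool read higher than the second for 32 genes and lower for 16, with a median difference of 0.21. Among the 7236 genes at a level of 5 or more these counts were 3640 and 3416, with a median of 0.00. A gap of at least 1.5-fold was found for 8 proteasome genes in favor of the first null pool and for 2 in favor of the second. Among those 7236 genes such a gap was found for 606 and 607. Relative to the WT mean of each gene, the median of the 49 genes was 0.15 in the first and 0.06 in the second null pool, and -0.01 to 0.03 in the WT pools.

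With a null array left out, the null group is 1 pool, the spread comes from the WT pools alone, and the lone pool is assumed to vary as they do. On that basis, without the first null array, 0 proteasome genes were higher and 3, Psmb7, Psmd4 and Psmd8, were lower. Without the second, 6 were higher, the called genes with Psma2, Psmb1 and Psmd5, and 0 were lower. Leaving out any 1 WT array left 2 or 3 genes higher, all of them among the called genes, and 0 lower.

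**Figure D5:**
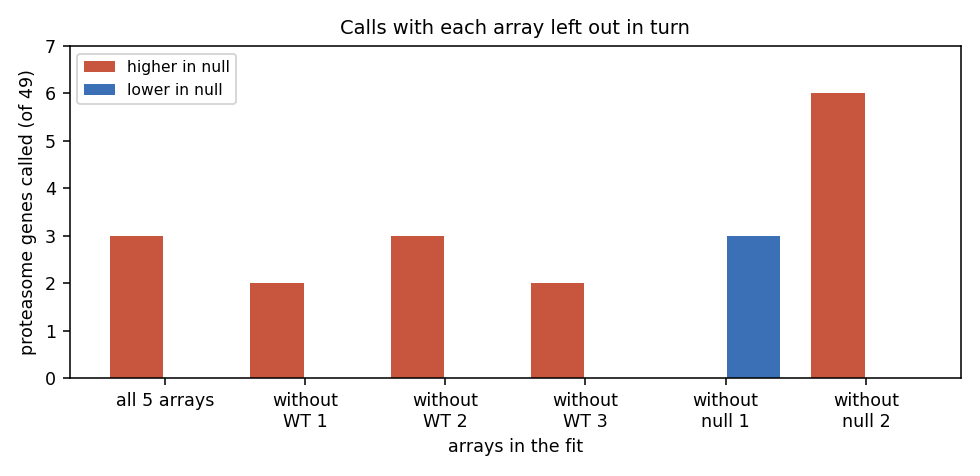
Number of the 49 proteasome genes called higher (red bars) and lower (blue bars) in Atxn1L null HSCs (vertical axis) with all 5 arrays and with each array left out in turn (horizontal axis). All 5 arrays gave 3 higher and 0 lower, the fit without the first null array 0 and 3, and the fit without the second 6 and 0.

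Outside the complex, 27 measured partners of the proteasome were read, among them substrate shuttles, deubiquitinases and regulators. Of these, 2 were higher (7.41%) and 1 was lower (3.70%), against 3.50% and 3.44% of the expressed genes. This list, too, was chosen with earlier results of these data known, and the shares measure no excess. Faf1, a ubiquitin-binding adaptor of the segregase Vcp, rose from 7.33, 7.33 and 7.31 in the WT pools to 8.54 and 7.99 in the null pools (log2 difference 0.94 with a standard error of 0.19, limma adjusted p = 0.529). Ngly1, the glycanase that activates Nfe2l1, rose by 0.71 from 6.81 to 7.52 (limma adjusted p = 0.892). Zfand2a, a stress-induced protein that binds the 19S particle, fell from 7.46 to 6.46, a difference of -0.99 (limma adjusted p = 0.700).

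The transcription factors that drive proteasome genes did not pass. Nfe2l1 read 9.84, 10.34 and 10.21 in the WT pools, against 9.90 and 9.90 in the null pools, and Nfe2l2 read 8.88 and 8.79. The small 19S subunit gene Sem1, outside the naming rule, read 12.39 and 12.65 with no overlap. The assembly factor Pomp read 8.74 and 9.16 and overlapped. Of the proteins that bind the 19S particle, the deubiquitinases Uchl5 and Usp14 differed by 0.13 and 0.35, the scaffold Ecpas by -0.07, and Txnl1 by 0.70 without passing on its brightest probe set. Akirin2, which brings the proteasome into the nucleus, read 7.29, 7.53 and 7.53 against 7.79 and 7.98, with no overlap and a difference of 0.44 (limma adjusted p = 0.681). Dimmer probe sets of Txnl1 and Usp14 passed, with rises of 0.74 and 0.69.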

How the data were processed

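The authors ran GCRMA on the scanned arrays. Its version was not given. The deposited table holds log2 values that had been background-corrected, quantile-normalized and summarized per probe set, the log base being read from their range. The sample labels gave the genotype of each of the 5 columns. After 64 Affymetrix controls had been left out, 45037 probe sets were fitted by limma 3.58.1 (R 4.3.3; lmFit, eBayes, default settings) with a mean per genotype, 3 residual and 0.771 prior degrees of freedom. Standard errors, confidence intervals and Benjamini-Hochberg adjusted p-values come from this fit. Genes were named by the platform annotation, and the probe set highest on average over the 5 arrays stood for its gene. The smallest p that an exact test could reach with 3 and 2 pools is 0.1. The number of arrays limits the precision.

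The members and lists were chosen with earlier results of these data known. Named are all called members, catalytic and inducible subunits, activators, assembly factors, the ends of each structural group, and called or regulatory genes of the partner and antigen presentation lists, of which 27 of 36 and 11 of 12 genes were measured. The fit was checked on simulated data. Alternatives were other normalizations, variance models, array weights, filters, probe set rules and criteria, a block for the replicate number, and fits without each single array.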

Additional observations from a re-analysis of the deposited data

How the results depend on the processing

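The count of proteasome genes called higher, 3, was 1 with array weights and 1 with the replicate block, Psmd14 in both. It was 5 on any probe set of a gene, 0 at an adjusted p under 0.05 and 5 by the fold alone, a criterion added after the data were seen. Without the x, s and a types of probe set it was 4, Psmb2, Psmd6, Psmd11 and Psme3, while Psmd14 has only a probe set of the a type. With probe sets averaged the count stayed at 3, with Psmd6 in place of Psme3. It was 0 to 6 with each array left out in turn, where the fits without a null array take their spread from WT pools alone. The count called lower, 0, was 1 with a variance trend and robust estimation, with array weights and without dim probe sets, where the gene was Psmb7, 1 on any probe set, 2 by the fold alone, and 0 to 3 with each array left out. The median difference, 0.08, was 0.16 with array weights, 0.02 without the x, s and a types of probe set and 0.03 with probe sets averaged, and 0.06 to 0.15 with each array left out. The cause was not tested. Single genes gave 629 values under the alternatives, of which 606 kept their side of the criterion, 13 came to pass and 10 ceased to, and none that passed in either fit changed sign. The 10 all belonged to Psmb2, Psmd14 and Psme3, while most of the 606 belonged to the 46 genes that were not called as fitted. Leaving out Psmc3ip and Psme3ip1, which was also added later, left the counts at 3 and 0.

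The replicate number as a block pairs the first and second pools of each genotype, which the labels do not document. Deviations from the genotype means correlated at -0.033 and -0.257 in the same-numbered pairs. With 2 null pools, their deviations are mirror images, so these values cannot tell whether same-numbered pools were paired. Under the block only Psmd14 was called, with 1 residual degree of freedom. With 3 and 2 arrays the median standard error of a proteasome gene was 0.17 on the log2 scale.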
